A study of Homo sapiens with 79 samples.

Results

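Collagen genes were followed in single cells of human retinal organoids. They were chosen by name alone, as the genes of the count table whose whole name is COL, a number, A and a number, and no measured value decided which genes belong to them. There were 42 of them among 24414 genes. By type they fall into 11 chains of fibril-forming collagens, 9 chains of network collagens, 10 chains of FACIT collagens (collagens with interrupted helices that sit on fibrils) and 12 chains of other types, which include type VI, type XVIII and the collagens that span the cell membrane. COL4A3BP, COL6A4P2 and COL5A1-AS1 share part of the name but are not collagen chains by this rule and were left out.

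Collagens are built from chains wound around each other into a helix. Fibril chains such as COL1A1, COL1A2 and COL3A1 make the cables of connective tissue, type IV chains make the sheet of basement membranes, and type VIII chains make a lattice found in basement membranes of the eye and of vessels. In the eye, types II, IX and XI are known from the vitreous gel, type IV from the inner limiting membrane and Bruch's membrane, and type I from the sclera and cornea. Many chains work only together with a partner from another gene, so the levels of partner chains are given side by side.

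The organoids were grown from H9, an established hESC line, which here carried a GFP reporter of the photoreceptor gene CRX. Day 60, day 90 and day 200 of differentiation were sampled, and the culture of all of them included serum, the thyroid hormone T3, taurine and retinoic acid. Day 60 (578 cells) and day 90 (661 cells) were captured on 1 chip each and day 200 on 2 chips, chip a (356 cells) and chip b (381 cells). The 79 samples are chip columns, 19 from day 60 and 20 from each of the other chips. Columns of 1 chip share their organoids, all groups stem from 1 cell line, and how many organoids went into a chip is not given in the sources used here.

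A column held between 3414268 and 7999822 reads, and the median cell between 160343 and 251929. Levels are given as CPM, the reads of a gene per 1000000 reads of all genes, over all cells of a chip or class, and series of 4 values are always in the order day 60, day 90, chip a, chip b. Only day 200 was captured more than 1 time, so no test was made, and differences are set against the gap between its chips. Per the study, day 90 was run first and with more spike-in control RNA, and its cells passed a looser limit on spike-in reads. Day 60 had a lower minimum of reads per cell than the other days. The lowest cell had 7549 reads at day 90 and 88192 at day 60. These differences cannot be told apart from those between days. In bulk sums over a chip, more cells of a type and more RNA per cell cannot be told apart. A gene was either at 0 on a chip or read in 5 or more of its cells, apart from 14 genes at day 60 and 6 genes on chip a, so a level of 0 may stand for reads in up to 4 cells. Ranges in parentheses are 95% intervals, exact Poisson for reads and exact binomial (Clopper-Pearson) for shares of cells. They leave out all error but counting, as reads here carry no molecular identifiers. The chips used 40 cell barcodes, of which 38 occur on every chip, so a cell is known by its barcode and column together.

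Collagen reads made up a larger part of the libraries at day 90 and on chip b than at day 60. For day 60 the sum over the 42 genes was 1624 CPM (1617 to 1632), and for day 90 it was 4654 CPM (4642 to 4666). Chip a stood at 2490.3 CPM (2480.4 to 2500.3) and chip b at 4523 CPM (4509 to 4537). Both day 200 chips thus lay between day 60 and day 90, with chip a nearer to the former and chip b nearer to the latter, and on the log2 scale the mean of the chips was 1.05 above day 60, with an SD of 0.61 between them.

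Fibril chains took most of these reads, from 60.4% on chip a to 75.8% on chip b. Their level was 988, 3392, 1504 and 3429 CPM over the 4 chips. Network chains had 156, 553, 238 and 329 CPM, FACIT chains 95.4, 185, 164 and 249 CPM and the other chains 385, 523, 584 and 516 CPM. Every kind was lowest at day 60, and the fibril chains had the widest gap between the day 200 chips.

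Of the 42 genes, 27 reached 20 CPM on at least 1 chip and 15 stayed below it on every chip. The highest of the latter was COL4A3, with 19.7 CPM on chip b, and the lowest of the former were COL6A2 and COL6A6, each with 20.7 CPM. All 4 chips had reads of 34 genes. At 0 were COL4A3, COL4A4, COL5A3, COL10A1, COL11A2 and COL15A1 at day 60, COL10A1 at day 90, COL5A3, COL10A1, COL11A2, COL20A1 and COL24A1 on chip a and COL11A2 on chip b.

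**Figure D1:**
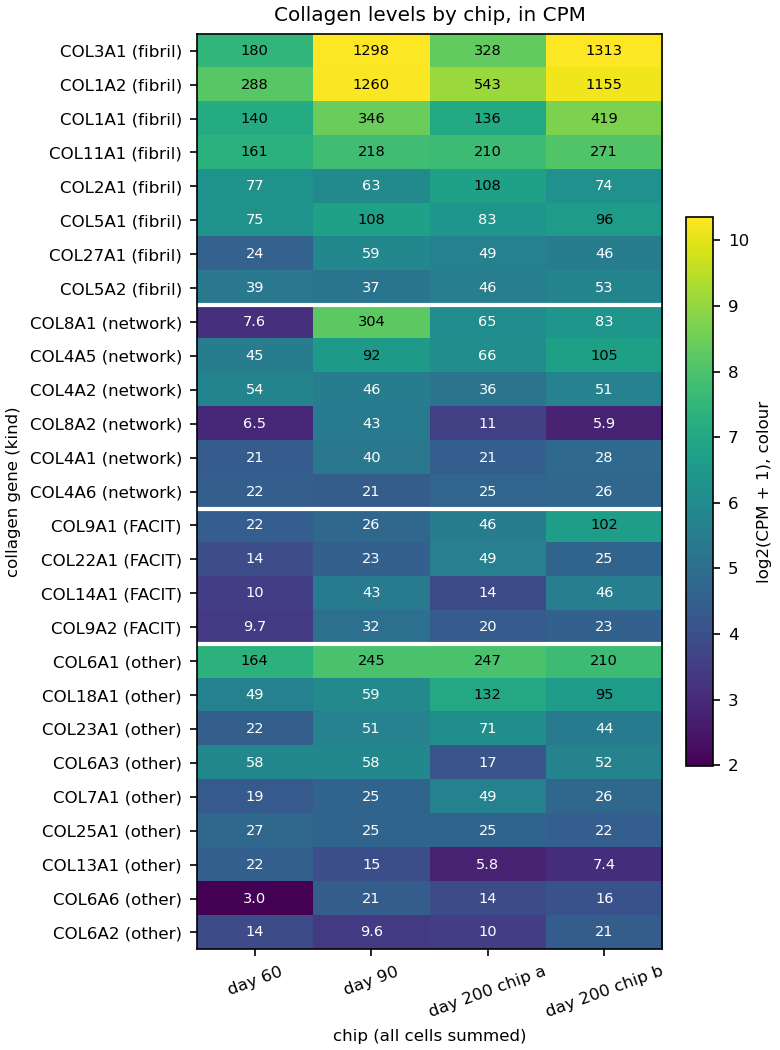
Level of the 27 collagen genes with at least 20 CPM on a chip (rows, by kind) on the 4 chips (columns), with the CPM printed in each field and log2(CPM + 1) as its colour. COL3A1 and COL1A2 were above 1000 CPM at day 90 and on chip b, and COL8A1 went from 7.59 CPM for day 60 to 304 CPM for day 90.

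A gene was counted as different between days where it had at least 20 CPM on a chip of those days and its CPM + 1 differed at least 2-fold, in the same direction for both day 200 chips. This is a rule of size and not a test. Against day 60, 11 of the 26 collagen genes at this minimum were higher at day 90 (COL1A1, COL1A2, COL3A1, COL4A5, COL6A6, COL8A1, COL8A2, COL9A2, COL14A1, COL23A1, COL27A1), which is 42.3%, while the rule held for 9.12% of all 8529 genes compared. None of the 26 was lower, with 6.32% of all genes. On both day 200 chips 3 of 25 were higher than at day 60 (COL8A1, COL9A1, COL9A2), or 12.0% with a background of 7.15% of 9060 genes, and 1 was lower (COL13A1), or 4.00% with 3.07%. From day 90 to day 200, none of 26 was higher, with 2.24% of all genes, and 2 were lower (COL8A1, COL8A2), with 1.47%.

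The day 200 chips differed from each other too. On chip b 6 of 24 collagen genes were at least 2-fold above chip a (COL1A1, COL1A2, COL3A1, COL6A3, COL9A1, COL14A1), or 25.0% with 4.72% of all genes, and none was as far below it, with 4.24%. The median log2 difference of chip b over chip a was 0.28 over these collagen genes and -0.03 over all 8627 genes. For day 200 over day 60, with the chips averaged, it was 0.91 over 25 collagen genes and 0.09 over all genes. COL1A1, COL1A2 and COL3A1 did not count as higher at day 200 because chip a stayed within 2-fold of day 60 for each of them. With only 1 of the day 200 chips in the rule, either one, 8 genes were higher than at day 60 in place of 3. With 10 CPM added in place of 1 CPM, 1 gene was higher on both day 200 chips and 0 were lower. With chips scaled by the median of ratios in place of total reads, 2 genes were higher. The share of all genes past the rule was not computed under these changed settings, so these counts have no background.

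To see which cells held the collagen reads, cells were clustered with the collagen genes left out of the variable genes and of the marker lists, and each class bears the name of a marker list of the study with the ending -like. The ECM-like class held 83 cells, with 15, 30, 6 and 32 on the 4 chips, and had all 7 genes left in its list as markers, with DCN, MGP, APOD and TGFBI among its leading genes. Of genes known from mesenchyme, all 6 listed were read in it, led by FBLN1 at 3190.1 CPM, LUM at 693 CPM and PDGFRA at 376 CPM. The 5 cartilage genes in the table, ACAN among them, were at 0 there. The endothelial genes PECAM1 and CDH5 had 0.0590 CPM each, while KDR had 65.9 CPM, with 71.9 CPM over all cells. Of the 6 genes listed for mural cells, RGS5 was at 0. PDGFRB had 147 CPM, ACTA2 34.7 CPM, MYH11 5.84 CPM, CSPG4 5.01 CPM and TAGLN 1.83 CPM. Over all cells these genes had less, at 39.1, 8.24, 0.421, 0.583 and 0.0959 CPM. Summed, the mural genes were highest in the ECM-like class, at 194 CPM.

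Other classes call for care with their names. Of the 259 rod-like cells, 200 were of a cluster led by VSX1, KLHL35 and LHX4, among them all 55 of day 60, and 59 were of a cluster led by CCKBR and GNAT1. The study's list for rods holds VSX1, a gene known from bipolar cells, and LHX4, and rod genes such as GNAT1 and NRL were among the leading genes of the smaller cluster alone. The class led by IGFBP6 had 5 of the 10 Müller glia genes as markers but 0 of them among its leading 10 genes, where 1 gene of the list for cluster 8 stood, and it was left unnamed. Of the 435 Müller glia-like cells, 354 were of a cluster led by MIR503HG, GFY and SFRP2, among them 132 of the 133 of day 60. That cluster had 6 of the 10 list genes as markers, and the cluster of the other 81 cells had 9. The study reports genes of retinal progenitors in its own Müller glia cluster, so this name does not set glia apart from progenitors.

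The ECM-like cells made up 4.20% of all cells and held 50.7% of all collagen reads. Their collagen level was 40452 CPM. Next came cluster 7-like cells with 3782 CPM and RPE-like cells with 3485 CPM, and lowest were cone-like cells with 785 CPM and RGC-like cells with 633 CPM. The study's own list for the ECM-like class held COL1A1, COL1A2 and COL3A1 and was chosen on these cells, so its high collagen level is not independent evidence of what the class is.

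The share of a chip's collagen reads in ECM-like cells was 28.04, 55.6, 34.2 and 63.6% over the 4 chips. The level within the class was 16801, 55443, 48877 and 36497 CPM, with only 6 cells behind the value of chip a. Day 60 thus had the lowest level per ECM-like cell, and chip a the smallest share of such cells. Where each cell was given to the list with its highest mean level in place of clustering, the class held 146 cells, and its share of collagen reads was 27.9, 60.5, 35.1 and 67.3%.

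Without the ECM-like cells the chip totals came closer together, at 1202, 2169, 1667 and 1786 CPM. In the other cells 7 of 24 collagen genes were higher at day 90 than at day 60 (COL1A2, COL3A1, COL8A1, COL8A2, COL9A2, COL23A1, COL27A1), or 29.2% with 9.23% of all genes, and none was lower, with 6.48%. On both day 200 chips 4 of 24 were higher than at day 60 (COL4A3, COL8A1, COL9A1, COL23A1), or 16.7% with 7.13% of all genes. Lower was 1 (COL13A1), or 4.17% with 3.14%. The place of COL4A3 is weak, as it had 3.20 CPM on chip a over all cells. Its 0 at day 60 may stand for reads in up to 4 cells. From day 90 to day 200 none of 24 was higher, with 2.32% of all genes, and 4 were lower (COL1A1, COL3A1, COL8A1, COL8A2), with 1.67%. Between the day 200 chips the rule still held for COL1A1, COL3A1, COL4A3, COL6A3, COL9A1, all higher on chip b, or 21.7% of 23 with 4.2% of all genes, and none was lower there, with 4.19%.

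Collagen reads were held by few cells. The 10% of cells with the most collagen reads held 47.7, 69.4, 55.6 and 67.4% of them on the 4 chips, and 70 of the 1976 cells were enough for 50% of all collagen reads. After each cell was thinned to 50000 reads, which left out 6 cells of day 90, the median cell had reads of 6, 7, 4 and 7 collagen genes. By class this median went from 4 in cone-like, rod-like and RGC-like cells to 14 in ECM-like cells.

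**Figure D2:**
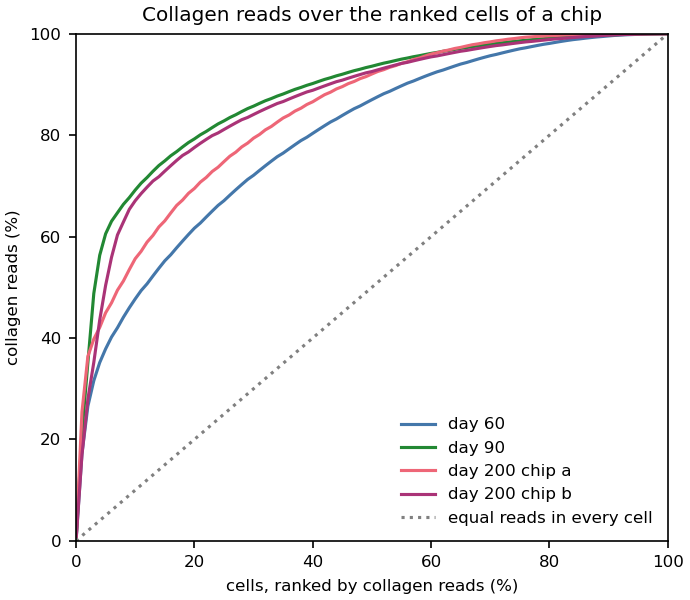
Cumulative share of a chip's collagen reads (vertical axis, percent) over its cells ranked by collagen reads (horizontal axis, percent), 1 line per chip. At 10% of the cells day 60 was lowest with 47.7% of the reads and day 90 highest with 69.4%.

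Among the fibril chains, COL3A1 and COL1A1 marked the ECM-like cells most sharply. COL3A1 (chr2:188974373-189012746, plus strand; positions from GENCODE 44 on GRCh38), the chain of type III collagen, had 179.8, 1298, 328 and 1313 CPM on the 4 chips. The lowest, median and highest of its columns were 0, 109 and 1022 CPM for day 60, 2.53, 871 and 3168 CPM for day 90, 0, 2.07 and 2103 CPM for chip a and 0.951, 1488 and 3705 CPM for chip b. The columns of all chips overlapped, but the median column of chip a was near 0. ECM-like cells held 92.5% of its reads, at 17334 CPM, and the next class, cluster 7-like cells, had 294 CPM.

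COL1A1 (chr17:50184101-50201632, minus strand), a chain of type I collagen, had 140.5, 346, 136 and 419 CPM. Its median columns had 61.5, 342, 0.467 and 352 CPM, and its highest column had 739.6 CPM at day 60 and 1414 CPM on chip b. Again the columns overlapped and the median column of chip a was near 0. ECM-like cells held 87.2% of its reads, at 5413 CPM, with 84.8 CPM in the next class. On chip a 14 columns had no ECM-like cell, and COL1A1 reached at most 67.8 CPM in them. In the 6 columns with such cells it went from 70.9 to 915 CPM, so these columns did not overlap with the others of that chip. On chip b there was no overlap either, with 126 CPM or more in columns with ECM-like cells and at most 14.6 CPM without. At the earlier days they overlapped, from 61.5 CPM with and up to 209 CPM without such cells at day 60, and from 63.9 CPM with and up to 368 CPM without at day 90.

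COL1A2 (chr7:94394895-94431227, plus strand), the other chain of type I collagen, was read far more widely than COL1A1. It had 288, 1260.2, 543 and 1155 CPM on the 4 chips, and its lowest columns had 50.1, 274, 14.95 and 108 CPM, so no column was without it. ECM-like cells held 66.5% of its reads, at 12995 CPM. Cluster 7-like cells, led by AOC2 and CPAMD8, had 1374 CPM of COL1A2 but 32.1 CPM of COL1A1.

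The wider reach of COL1A2 was also seen in single cells. At 50000 reads per cell, 519 of 1970 cells had at least 5 reads of COL1A2 and fewer than 5 of COL1A1. The reverse held for 42 cells, and 139 had at least 5 reads of both. Of the cells with COL1A1, 76.8% also had COL1A2, which 33.4% of all cells had. Of those with COL1A2, 21.1% had COL1A1, with 9.19% of all cells. Fewer than 5 reads does not mean none, as 15.2% of Müller glia-like cells had at least 1 read of COL1A1. COL1A2 without COL1A1 was found in 79.5% of cluster 7-like cells, 42.2% of the unnamed class led by IGFBP6, 40.3% of Müller glia-like cells and 10.3% of cone-like cells, and in none of 81 ECM-like cells. At least 5 reads of each of COL1A1, COL1A2 and COL3A1 were found in 97.5% of ECM-like cells (91.4 to 99.7) and in 0.461% to 3.51% of the cells of the other classes. Per length of all exons joined, COL1A2 was 2.00 times COL1A1 in ECM-like cells, 18.4 times in Müller glia-like cells and 35.7 times in cluster 7-like cells. The ratio was lowest in RGC-like cells at 1.64 and cone-like cells at 1.68, so ECM-like cells did not stand apart from all others by it.

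**Figure D3:**
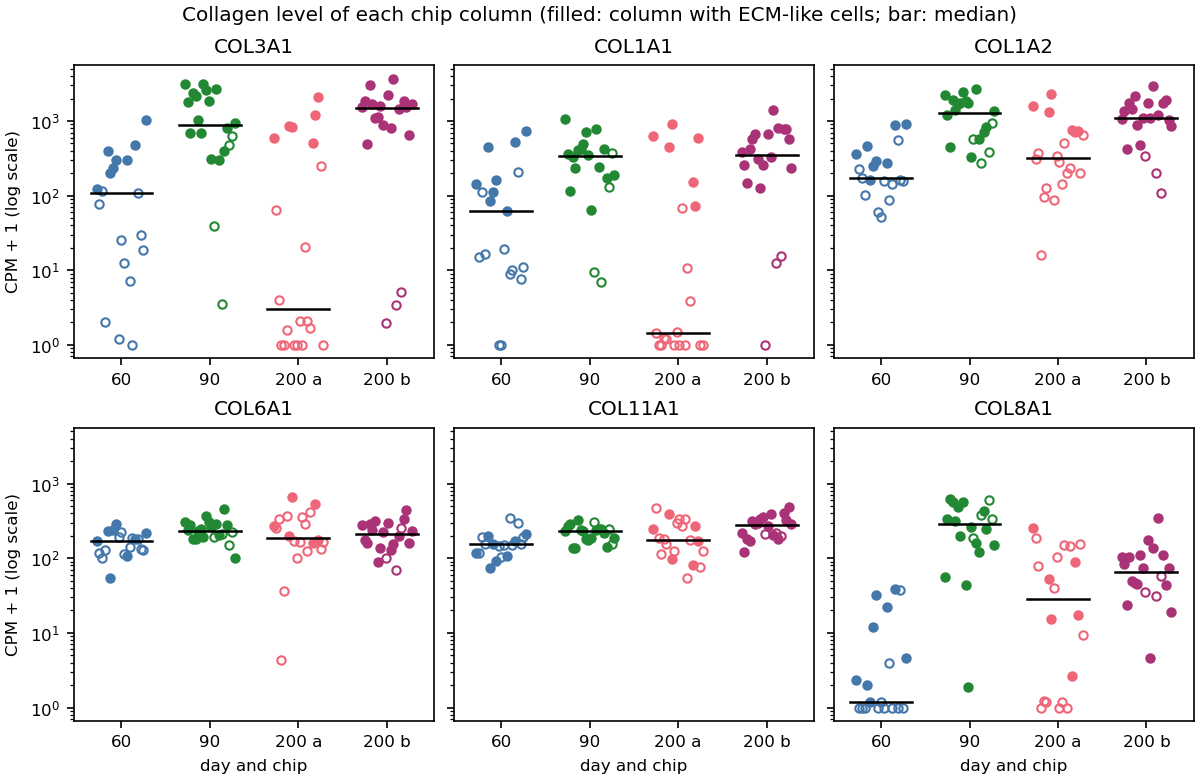
Level of 6 collagen genes in each of the 79 chip columns (points, CPM + 1 on a log axis) by day and chip, filled for columns with ECM-like cells and open for those without, with a bar at the median. The median of COL3A1 was 2.07 CPM for chip a but 1488 CPM for chip b, with the open points mostly low, while the medians of COL6A1 lay between 169 and 233 CPM.

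Of the type V chains, which sit inside type I fibrils, COL5A2 had 39.2, 37.1, 46.1 and 52.7 CPM on the 4 chips and 390.2 CPM in ECM-like cells. Its partner COL5A1 had 75.5, 108, 82.7 and 96.3 CPM and 562 CPM in ECM-like cells, and cone-like cells came next with 172 CPM. These classes held 25.7% and 26.3% of its reads. Per length, COL5A1 was 0.944 times COL5A2 in ECM-like cells and 14.2 times in cone-like cells, so the chains did not share their cells in the same proportion. Within cone-like cells COL5A1 had 388, 174, 53.2 and 166 CPM, with both day 200 chips below day 60. COL27A1, a fibril chain with 23.7, 58.7, 49.4 and 45.8 CPM, was highest in RPE-like cells at 184 CPM, and ECM-like cells had 117 CPM.

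COL11A1 and COL2A1, chains known from vitreous and cartilage, were not highest in ECM-like cells. COL11A1 had 161, 218, 209.5 and 271 CPM on the 4 chips. Its columns went from 73.7 to 341 CPM at day 60, 135 to 328 CPM at day 90, 54.2 to 467 CPM for chip a and 121 to 489 CPM for chip b, so the chips overlapped and no column was without it. Cluster 8-like cells, led by GFAP, had 405 CPM, Müller glia-like cells 399.7 CPM, ECM-like cells 243 CPM and RGC-like cells 35.8 CPM. COL2A1 had 76.8, 62.8, 108 and 73.6 CPM and was highest in Müller glia-like cells at 212 CPM, which held 54.3% of its reads, and ECM-like cells had 6.49 CPM.

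COL11A1 was found in more cells than COL2A1. At least 5 reads of both were found in 213 cells at 50000 reads, of COL11A1 alone in 534 and of COL2A1 alone in 130, where alone means fewer than 5 reads of the other. Of the cells with COL2A1, 62.1% also had COL11A1, which 37.9% of all cells had, and of those with COL11A1, 28.5% had COL2A1, with 17.4% of all cells. COL11A2, a further chain of type XI collagen, had 0.622 CPM at day 90 and was at 0 on the other chips. Such a 0 may stand for reads in up to 4 cells of a chip. With COL5A3 and COL24A1, the remaining fibril chains, COL11A2 stayed at or below 3.47 CPM on every chip.

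The network chains of type VIII collagen followed the RPE-like cells. COL8A1 (chr3:99638475-99799226, plus strand) had 7.59, 304, 65.4 and 82.8 CPM on the 4 chips. The lowest, median and highest of its columns were 0, 0.201 and 37.99 CPM at day 60 and 0.863, 288 and 629.6 CPM at day 90, so the median column of day 90 was above every column of day 60. RPE-like cells, of which 78 of 98 were from day 90, held 75.97% of its reads, at 1781 CPM, followed by ECM-like cells at 295 CPM. It was read in 92.9% (85.8 to 97.1) of RPE-like cells at 50000 reads and in 9.47% (6.09 to 13.9) of cone-like cells. The study's list for RPE held COL8A1, so this class is not independent evidence for it.

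COL8A2 had 6.47, 42.6, 10.8 and 5.89 CPM and 254 CPM in RPE-like cells, with 74.9% of its reads there. Per length, COL8A1 was 3.48 times COL8A2 in RPE-like cells and 2.61 times in ECM-like cells. At least 5 reads of both chains were found in 53 cells, of COL8A1 alone in 120 and of COL8A2 alone in 20. Outside the RPE-like class COL8A1 was also higher at day 200 than at day 60. Within Müller glia-like cells it had 0.0483, 11.8, 35.9 and 14.5 CPM, and most cells of this class on chip a (64 of 104) were of a cluster that held 1 cell of day 60.

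The 6 chains of type IV collagen, the sheet of basement membranes, lie as neighbour pairs in the genome, with the genes of a pair read in opposite directions from starts close to each other. In RefSeq's table of promoters on GRCh38.p14, 126 bases lie between the starts of COL4A1 and COL4A2, 418 between those of COL4A4 and COL4A3 and 379 between those of COL4A5 and the nearer start of COL4A6. Parts of the stretches between these starts are shown here because the chains of each pair share them. The first and the second are cut to what no exon of GENCODE 44 covers, the third is the 250 bases before the start of COL4A5 that the table holds, and capitals mark the motif CCAAT, or ATTGG, which is CCAAT on the other strand.
COL4A1 and COL4A2, chr13:110307158-110307257, plus strand: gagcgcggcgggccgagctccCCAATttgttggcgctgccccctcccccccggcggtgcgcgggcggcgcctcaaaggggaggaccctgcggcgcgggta
COL4A3, chr2:227164454-227164623, plus strand: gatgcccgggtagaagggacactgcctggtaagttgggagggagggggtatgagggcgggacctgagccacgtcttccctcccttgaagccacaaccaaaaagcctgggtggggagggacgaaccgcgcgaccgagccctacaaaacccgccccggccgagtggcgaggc
COL4A5, chrX:108439588-108439837, plus strand: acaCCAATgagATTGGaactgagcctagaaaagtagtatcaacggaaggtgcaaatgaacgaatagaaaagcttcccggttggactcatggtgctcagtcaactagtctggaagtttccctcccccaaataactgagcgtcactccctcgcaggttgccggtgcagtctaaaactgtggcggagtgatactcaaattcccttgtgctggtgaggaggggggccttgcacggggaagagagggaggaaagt

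The first stretch lies in an intron of COL4A2 in GENCODE 44, and the others in no annotated gene. CCAAT was found 1 time between COL4A1 and COL4A2, 2 times before COL4A5 and 0 times before COL4A3. In the 250 bases before a start, 32.01% of 35116 promoters hold it on either strand, as do 11 of 43 promoters of collagen genes. TATAAA, or TTTATA on the other strand, was in none of the 3 stretches, in 10.7% of all promoters and in 7 of the 43. These matches describe the letters only. The table had an entry for 31 of the 42 collagen genes, and those without are COL1A1, COL1A2, COL2A1, COL3A1, COL5A2, COL6A1, COL8A1, COL9A3, COL14A1, COL20A1 and COL22A1.

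Of each type IV pair, more cells had at least 5 reads of a single chain than of both. COL4A1 had 20.6, 39.9, 21.5 and 27.7 CPM on the 4 chips and COL4A2 53.6, 45.5, 35.99 and 50.9 CPM, and per length COL4A2 was from 0.869 times COL4A1 at day 90 to 1.98 times at day 60. At 50000 reads 48 cells had at least 5 reads of both, 222 of COL4A2 alone and 98 of COL4A1 alone. Of the cells with COL4A1, 32.9% also had COL4A2, which 13.7% of all cells had, and of those with COL4A2, 17.8% had COL4A1, with 7.41% of all cells. Both were highest in cluster 8-like cells, at 131 CPM for COL4A1 and 156 CPM for COL4A2. ECM-like cells had 96.4 CPM of COL4A1 and 48.8 CPM of COL4A2. These genes overlap on opposite strands in GENCODE 44, and the strand setting of the counting is not given in the sources used here, so reads from the overlap cannot be told apart.

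COL4A5 and COL4A6, the pair on chromosome X, were both read on every chip. COL4A5 had 45.2, 91.8, 66.4 and 105 CPM and COL4A6 22.1, 21.01, 25.3 and 26.02 CPM. COL4A5 alone was found in 380 cells, COL4A6 alone in 89 and both in 45. Per length COL4A5 was from 1.36 times COL4A6 in cluster 7-like cells to 17.4 times in RPE-like cells.

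COL4A3 and COL4A4, known with COL4A5 from the mature membrane of the kidney glomerulus, were at 0 at day 60. For each gene this 0 may stand for reads in up to 4 of the 578 cells. COL4A3 had 0, 4.72, 3.20 and 19.7 CPM and COL4A4 0, 3.97, 9.86 and 8.55 CPM on the 4 chips. The unnamed class led by IGFBP6 held 64.5% of the COL4A3 reads and 32.8% of the COL4A4 reads. Few cells stood behind these levels, since 5 cells held 50% of the COL4A3 reads and 6 cells had at least 5 reads of both chains. Of the cells with COL4A4, 23.1% also had COL4A3, which 1.32% of all cells had, and of those with COL4A3, 23.1% had COL4A4, with 1.32% of all cells.

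**Figure D4:**
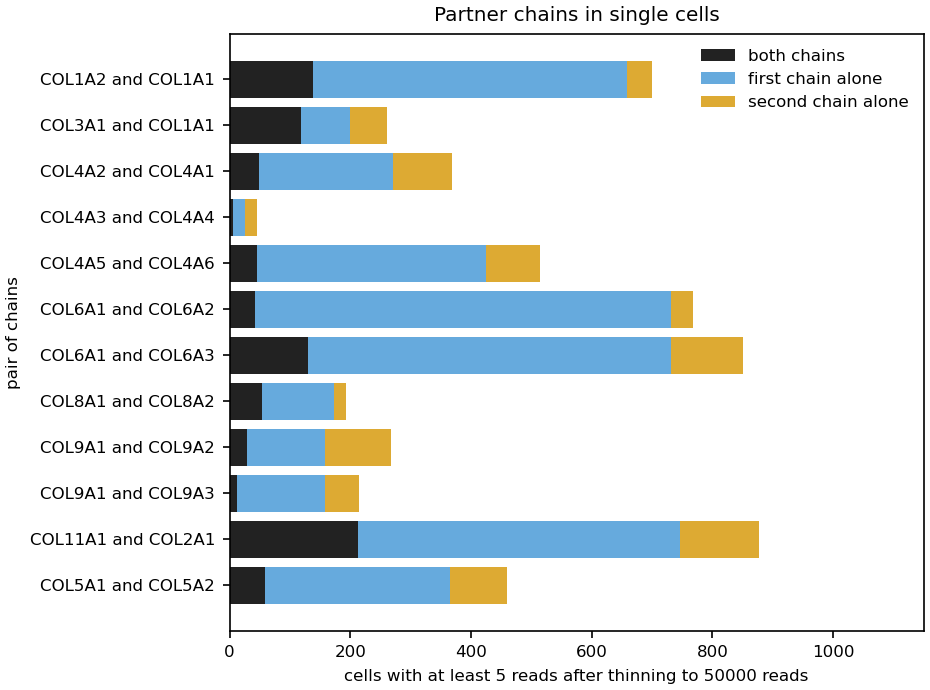
Number of cells (horizontal axis) with at least 5 reads, after thinning to 50000 reads per cell, of both chains of a pair (black), of the first alone (blue) and of the second alone (yellow), for 12 pairs of chains. For COL3A1 and COL1A1, cells with both (119) outnumbered those with the first alone (80), and in each other pair shown they were fewer than those with the first alone.

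Among the FACIT chains, COL9A1 and COL9A2 lay above day 60 on both day 200 chips. On chip a they were close to the 2-fold limit, at 1.05 and 1.0007 above day 60 on the log2 scale. COL9A1, a chain of type IX collagen, had 21.6, 26.3, 45.7 and 102 CPM. The lowest, median and highest of its columns were 0.816, 13.4 and 73.4 CPM for day 60, 0, 21.04 and 78.8 CPM for day 90, 0, 33.99 and 247 CPM for chip a and 2.4005, 76.5 and 531 CPM for chip b, so the chips overlapped. Cluster 7-like cells had 453 CPM and held 33.1% of its reads. Within this class it had 143 CPM in 17 cells of day 60, 266 CPM in 36 cells of day 90 and 1369.9 CPM in 11 cells of chip b. Chip a had 9 cells of this class, below the 10 cells required for the level of a gene by class and chip. The study's list for cluster 7 held COL9A1, so this class is not independent evidence for it either.

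COL9A2 had 9.68, 31.6, 20.4 and 23.04 CPM and was highest in cluster 7-like cells at 101.5 CPM and in RPE-like cells at 59.9 CPM. COL9A1 and COL9A2 shared 29 cells at 5 reads, with 129 cells of COL9A1 alone and 109 of COL9A2 alone. COL9A3, the third chain, was highest in ECM-like cells at 58.5 CPM, where COL9A1 had 2.42 CPM and COL9A2 5.25 CPM. The chains of type IX thus did not have their highest level in the same class.

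COL14A1, which binds to type I fibrils, had 10.5, 43.3, 13.5 and 46.5 CPM and was mostly found in ECM-like cells, with 83.9% of its reads there at 572 CPM. COL22A1, known from tissue junctions, had 14.5, 22.5, 49.04 and 24.6 CPM and was highest in the unnamed class led by IGFBP6 at 74.5 CPM. The remaining FACIT chains COL9A3, COL12A1, COL16A1, COL19A1, COL20A1 and COL21A1 stayed below 20 CPM on every chip. COL16A1, COL21A1 and COL12A1 were highest in ECM-like cells, at 198, 119.6 and 32.8 CPM.

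COL6A1 was the collagen gene that most classes had in common. COL6A1 (chr21:45981770-46005050, plus strand), a chain of the beaded filaments of type VI collagen, had 164, 245, 247 and 209.7 CPM on the 4 chips. Its columns went from 52.9 to 283 CPM at day 60, 99.5 to 456 CPM at day 90, 3.27 to 668 CPM for chip a and 69.3 to 438 CPM for chip b, so all chips overlapped. Per length it was among the leading 3 collagen genes in 9 of the 11 classes, that is, in those other than the ECM-like and cluster 7-like cells. It was read in 45.7% (39.3 to 52.2) of cone-like cells at 50000 reads, 56.9% (52.1 to 61.6) of Müller glia-like cells and 92.6% (84.6 to 97.2) of ECM-like cells.

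Its partner COL6A2 did not have this breadth. It had 13.8, 9.63, 10.2 and 20.7 CPM, and per length COL6A1 was from 9.77 times COL6A2 on chip b to 24.5 times at day 90. By class the ratio went from 7.93 in the unnamed class led by IGFBP6 to 46.3 in cone-like cells, with 11.9 in ECM-like cells and 29.7 in Müller glia-like cells. Cells with at least 5 reads of COL6A1 alone numbered 689, with COL6A2 alone 37 and with both 42. The libraries were made from full-length cDNA, and counts per gene do not show how evenly reads cover a transcript. The joined exons of COL6A1 and COL6A2 are of like length, 5536 and 5334 bases.

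COL6A3, the large chain of type VI, was spread over most cells at a low level. At least 1 read was found in 98.4, 89.4, 82.6 and 97.1% of the cells of the 4 chips, and in 83.7, 67.6, 37.1 and 76.1% at 50000 reads per cell. By class the thinned share was 54.7% (48.2 to 61.1) in cone-like cells, 80.0% (66.3 to 89.97) in cluster 8-like cells and 93.8% (86.2 to 97.97) in ECM-like cells. With at least 5 reads required, it was 65.4% in ECM-like cells and between 4.22% and 17.5% in the other classes. Single reads were thus found in every class and higher counts mainly in ECM-like cells, which had 366 CPM, with 24.8 to 41.3 CPM in the others. The chips had 58.2, 58.4, 17.2 and 51.9 CPM, and chip a was also lowest within Müller glia-like cells, with 54.7, 46.2, 11.8 and 43.1 CPM.

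COL6A6, a further type VI chain, had 2.95, 20.7, 14.1 and 15.99 CPM, with 40.8% of its reads in Müller glia-like cells. Within them it had 4.30, 49.97, 27.1 and 31.4 CPM. COL18A1, a collagen of basement membranes whose end fragment is endostatin, had 49.4, 59.3, 132 and 95.4 CPM. Within Müller glia-like cells it had 67.9, 92.4, 264 and 148 CPM, so both day 200 chips were above the earlier days there. The mix of clusters in this class differed between chips, so these levels of COL6A6 and COL18A1 do not show a change within a cell type.

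The collagens that span the cell membrane differed in their day and class. COL13A1 was the gene lower at day 200, with 22.3, 14.8, 5.85 and 7.38 CPM on the 4 chips, though not with 10 CPM added. Within Müller glia-like cells, where the mix of clusters differed between chips, it had 33.9, 31.8, 5.53 and 9.54 CPM. COL23A1 had 22.04, 51.3, 70.9 and 43.6 CPM and was highest in cluster 7-like cells at 142 CPM and in mitotic-like cells at 112 CPM, with 0.142 CPM in RPE-like cells. COL25A1 had 27.4, 24.6, 24.7 and 21.6 CPM, with 49.4% of its reads in Müller glia-like cells.

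COL7A1, the chain of anchoring fibrils, had 19.3, 24.7, 49.2 and 26.3 CPM and reached at most 41.8 CPM in a class, in RPE-like cells, with 39.2 CPM in cone-like cells. COL15A1, a basement membrane collagen related to COL18A1, was at 0 at day 60, which held 15 ECM-like cells. For COL15A1 this 0 may stand for reads in up to 4 cells. Within ECM-like cells it had 179.7 CPM at day 90 and 225 CPM on chip b, and this class held 89.1% of its reads. Chip a, with 6 ECM-like cells, was below the minimum of 10 cells for such a level. COL26A1 and COL28A1 stayed at or below 8.20 CPM, and COL10A1, a network chain known from growing cartilage, at or below 2.3990 CPM on every chip.

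**Figure D5:**
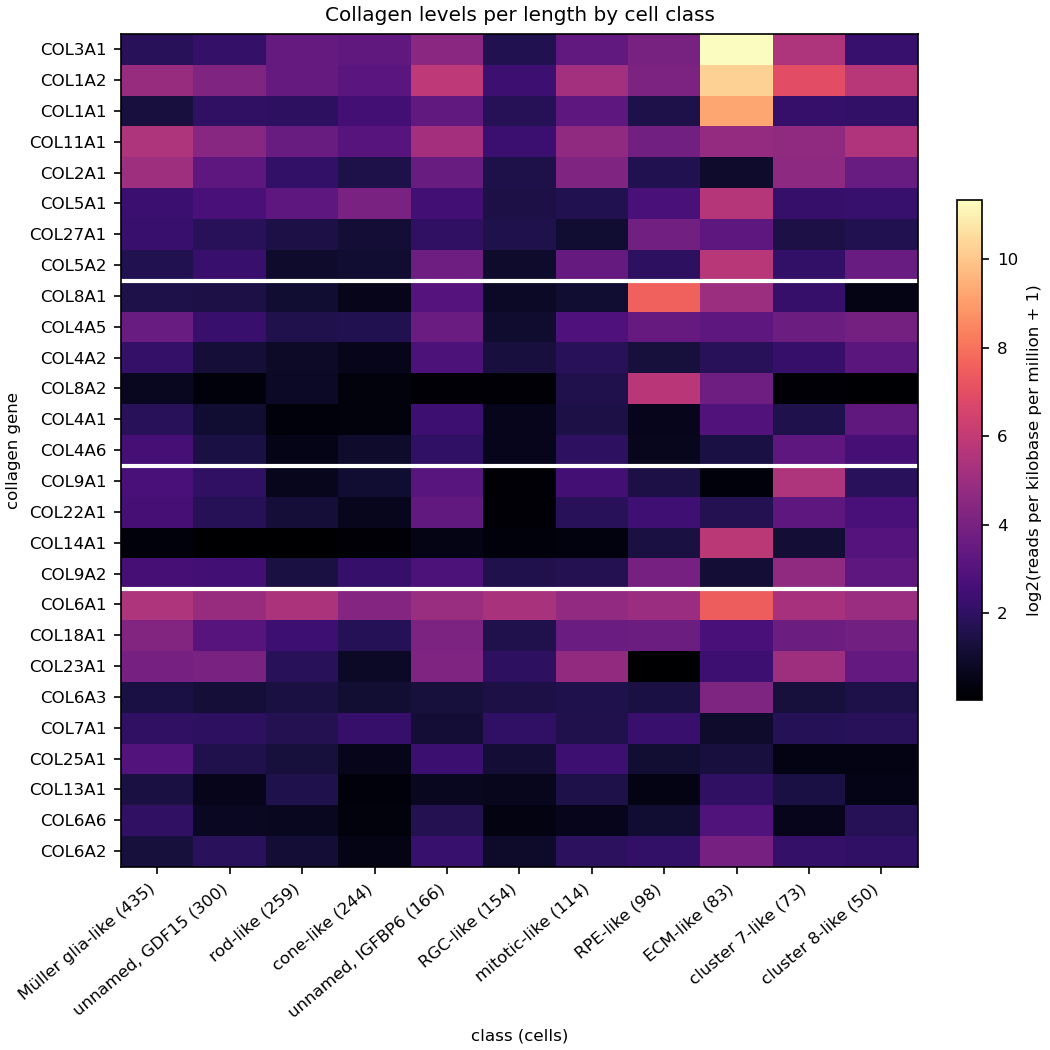
Level of the 27 leading collagen genes (rows, by kind) in the 11 cell classes (columns, with their number of cells), as log2(RPKM + 1), where RPKM is CPM per kilobase of joined exons. COL3A1, COL1A2 and COL1A1 were highest in ECM-like cells, COL8A1 and COL8A2 in RPE-like cells and COL2A1 in Müller glia-like cells, and COL6A1 had at least 19.3 RPKM in every class.

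Of the 27 leading genes, 11 were highest in ECM-like cells, 4 in cluster 8-like, 4 in RPE-like, 4 in cluster 7-like and 3 in Müller glia-like cells, and 1 in the unnamed class led by IGFBP6. In RPKM (CPM divided by the kilobases of joined exons), the leading genes of ECM-like cells were COL3A1 at 2565, COL1A2 at 1202 and COL1A1 at 601, and those of RPE-like cells COL8A1 at 189, COL8A2 at 54.3 and COL6A1 at 30.2. Müller glia-like cells were led by COL6A1 at 44.2, COL11A1 at 43.97 and COL2A1 at 31.9. Cluster 7-like cells had COL1A2 at 127, COL9A1 at 43.9 and COL3A1 at 43.4, and cluster 8-like cells COL1A2 at 52.7, COL11A1 at 44.6 and COL6A1 at 30.2. ECM-like, RPE-like and Müller glia-like cells were thus led by different chains.

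On the same scale the neuron-like classes were lower, apart from COL6A1. Cone-like cells were led by COL6A1 at 19.3, COL5A1 at 15.4 and COL3A1 at 9.15, rod-like cells by COL6A1 at 41.1, COL11A1 at 11.1 and COL3A1 at 10.02 and RGC-like cells by COL6A1 at 39.4, COL1A2 at 4.05 and COL11A1 at 3.93. The place of COL3A1 rested on few cells, as at least 5 reads at 50000 reads were found in 3.70% of cone-like and 5.79% of rod-like cells, and rod-like cells had 8.70, 207, 9.47 and 36.6 CPM of it on the 4 chips. Mitotic-like cells had COL1A2 at 35.1, COL23A1 at 25.7 and COL6A1 at 24.5. The unnamed class led by IGFBP6 had COL1A2 at 58.2, COL11A1 at 36.2 and COL6A1 at 29.1, and that led by GDF15 had COL6A1 at 28.6, COL11A1 at 20.5 and COL1A2 at 17.3.

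Across all 1976 cells, few pairs of collagen genes had a high correlation. Of 351 pairs among the 27 leading genes, 4 had a Pearson correlation of log2(CPM + 1) over 0.5, and the median was 0.07. These were COL3A1 with COL1A1 at 0.71, COL14A1 with COL3A1 at 0.60, COL14A1 with COL1A1 at 0.56 and COL8A2 with COL8A1 at 0.53. Cells share chips, depth and classes, so these values are descriptions. Some of the genes were read in few cells, such as COL6A6 in 8.25% and COL13A1 in 11.3% of all cells, which can keep a correlation low. No background over pairs of other genes was computed.

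For the fibril chain, the network chain and the chain of the other kinds with the most reads, the 5 genes most like it were taken by correlation over the 1976 cells, from 12602 genes. COL1A2 was followed by TGFBI, DCN, MGP, LGALS1 and SPARC, with 0.48 to 0.39, and DCN, MGP and SPARC are matrix proteins. COL8A1 was followed by TYRP1, ELN, BEST1, TYR and TRPM1, with 0.62 to 0.58, and TYRP1 and TYR are enzymes of melanin synthesis. The genes after COL6A1 (DCN, TGFBI, ITM2A, PI15 and MGP) reached at most 0.23.

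Genes that modify, cleave, bind or break down collagen were counted by the same 2-fold rule between day 60 and day 200, in 7 lists with 77 of 85 genes in the table. Of the 46 at the minimum level, 13 were higher on both day 200 chips, or 28.3% with 7.15% of all genes, and 1 was lower, or 2.17% with 3.07%. Of the 13 genes of proline and lysine modification, P3H2 (14.1 CPM at day 60 and 82.9 and 87.7 CPM on the day 200 chips) and COLGALT2 (18.7 CPM at day 60 and 53.3 and 63.7 CPM on the day 200 chips) were higher. None of the 7 folding and export genes was. Of 5 genes that cleave propeptides or crosslink fibrils, the procollagen protease ADAMTS3 (7.04 CPM at day 60 and 35.1 and 25.3 CPM on the day 200 chips) was higher.

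Of 3 collagen receptors at the minimum, DDR2 (6.12 CPM at day 60 and 84.8 and 111 CPM on the day 200 chips) and MRC2 (15.9 CPM at day 60 and 37.6 and 46.9 CPM on the day 200 chips) were higher, and both were highest in ECM-like cells. Among 6 genes of breakdown and its inhibitors, the gelatinase MMP2 (2.46 CPM at day 60 and 12.4 and 30.2 CPM on the day 200 chips) and the inhibitor TIMP3 (42.2 CPM at day 60 and 171 and 176 CPM on the day 200 chips) were higher, and the inhibitor TIMP1 (701 CPM at day 60 and 142 and 346 CPM on the day 200 chips) was lower. Of 7 basement membrane partners of type IV collagen, the laminin chains LAMA2 (12.2 CPM at day 60 and 33.8 and 52.1 CPM on the day 200 chips), LAMB1 (39.5 CPM at day 60 and 85.8 and 118 CPM on the day 200 chips) and LAMC1 (34.01 CPM at day 60 and 80.9 and 86.5 CPM on the day 200 chips) were higher. Of 5 small proteoglycans that sit on fibrils, DCN (28.3 CPM at day 60 and 59.8 and 147 CPM on the day 200 chips), FMOD (4.30 CPM at day 60 and 11.3 and 37.5 CPM on the day 200 chips) and PRELP (15.3 CPM at day 60 and 48.5 and 33.5 CPM on the day 200 chips) were higher. DCN and TIMP1 stand in the study's list for the ECM-like class and TIMP3 in that for RPE, and these lists were chosen on the same cells.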

How the data were processed

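Single cells of H9 retinal organoids were measured with the SMART-Seq v4 kit on Fluidigm C1 HT chips. Per the study's methods and the submitters' processing notes, reads were trimmed by Trimmomatic 0.33, aligned by STAR 2.4.0 to GRCh38.p7 and counted per gene by HTSeq 0.6, and Scater was used to filter. The deposited values are raw counts made by the authors for 1976 cells. Library sizes do not include the spike-in. The collagen genes as a subject and the gene lists were chosen with earlier results of these data known, while the members are set by name.

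Counts were summed over the cells of a chip or class and divided by the summed reads (scipy 1.17.1, numpy 2.4.6, pandas 2.3.3, Python 3.11.15). No test was made, since day 60 and day 90 were captured 1 time each and neither columns nor cells are replicates. Collagen genes with at least 20 CPM on any chip were named with every chip's value, as were the leading 3 per length in each class of 20 or more cells and at most 3 genes per direction of each matrix list. Clusters came from CCA integration in Seurat 5.3.0 (R 4.3.3) of the most variable genes, 2412 without collagen genes, with 20 dimensions and resolution 0.6. A class needed 3 markers, each at least 2-fold above the other cells (5 CPM added to both) and read in 20% of its own cells, and no other list with more genes among its leading 10 by fold. In scanpy 1.11.5, scrublet marked 28 cells as doublets, 24 of them on chip a, and all were kept. Lengths are the joined exons of GENCODE 44 on GRCh38. The code of the 2-fold rule and of the thinning was run on simulated counts with known answers. Those counts held counting error only and no spread between chips, so the run does not measure how often the rule errs here. Alternatives covered scaling, offset, minimum, filters on cells, doublets, clustering, length, thinning, single chips and single classes. The genes most like the leading FACIT chain are not reported here.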

Additional observations from a re-analysis of the deposited data

Results flagged for a closer look

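A few collagen genes were picked out because they moved in opposite directions in different classes between day 60 and both day 200 chips, each by at least 2-fold in CPM + 1. Differences between the classes were not tested. On the log2 scale, chip a first and chip b second, COL1A1 differed from day 60 by 1.24 and 1.47 in the unnamed class led by GDF15, by -3.77 and -1.53 in the unnamed class led by IGFBP6 and by -4.93 and -2.38 in RGC-like cells. The last 2 classes had 12 and 11 cells on chip a. COL5A1 differed by 1.61 and 1.02 in Müller glia-like cells and by 2.45 and 1.11 in the unnamed class led by IGFBP6, but by -2.84 and -1.22 in cone-like cells. For COL18A1, the values were 1.95 and 1.11 in Müller glia-like cells, 1.26 and 1.14 in rod-like cells and -3.12 and -1.28 in RGC-like cells. In RGC-like cells it had 26.8, 6.46, 2.19 and 10.4 CPM on the 4 chips. The mix of clusters in the Müller glia-like and rod-like classes differed between chips, so these values do not show opposite changes within cell types. The share of all genes that would be picked out in this way was not computed.

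Reads were also present for names that only resemble those of collagen chains and were left out of all sums. The pseudogene COL6A4P2 had 80 reads at day 60, 459 at day 90 and 717 on chip a, and was at 0 on chip b. The antisense gene COL5A1-AS1 had 84 reads at day 90 and was at 0 on the other chips. Without a known strand setting, its reads and those of COL5A1 cannot be told apart.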

How the results depend on the processing

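Of 95 values recomputed under alternatives for 18 results, 74 stayed within the limits set for them. In direction 0 turned, which counts, shares, levels and ratios cannot do. At day 200 the total collagen level without ECM-like cells was 0.52 above day 60 on the log2 scale, with 1.05 for all cells. This drop was counted as within the limits. With resolution 0.4 or 0.8 the ECM-like class again held 83 cells and the same shares of collagen reads. Without ECM-like cells the total collagen level at day 90 was 0.85 above day 60 on the log2 scale, and 0.67 also without RPE-like cells, an alternative chosen after seeing the data, where the value with all cells was 1.52. The count of collagen genes higher at day 90 than at day 60 went from 11 to 7 and 5 in these settings. At day 200 the count higher than at day 60 was 7 without both classes, 1 with an offset of 10 CPM and 7 with no minimum, in place of 3, and the count lower was 0 with that offset and 2 with no minimum, in place of 1. With no minimum 1 gene was lower at day 90. With chip a or chip b left out, the count higher at day 200 was 8 in both cases, the count lower went from 1 to 2, the total level from 0.62 to 1.48 above day 60, and the ECM-like share of collagen reads from 34.2% to 63.6%. Apart from the setting without ECM-like cells alone, no share over all genes was computed for these counts, so they have no background.

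The mean ratio of COL1A2 to COL1A1 per length was 2.59, and 3.33 with coding length and 10.6 without ECM-like cells. For COL4A2 to COL4A1 it was 1.38, and 1.77 with coding length, 1.55 without ECM-like cells and 1.81 with no division by length, which was chosen after seeing the data. The share of day 200 cells with COL1A1 went from 15.8% to 27.1% without thinning, and that with COL6A3 from 56.6% to 89.8%, or to 7.90% with at least 5 reads. The cause of these shifts was not tested. No paired analysis was possible because no result comes from a test and column numbers mark no shared sample. Depth limits what a gene at or near 0 on a chip can show, and counting intervals leave out the spread between cells.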

Other observations

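Outside the ECM-like class, 9 of 1893 cells had at least 10000 CPM of collagen, 2 at day 60, 6 at day 90 and 1 on chip a, as did 78 of 83 ECM-like cells. None of them was called a doublet. A cell of the unnamed class led by IGFBP6 reached 79161 CPM and a cone-like cell 30682 CPM, while the lowest ECM-like cell had 4894 CPM and the highest 100413 CPM.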
